A study of Mus musculus with 6 samples.

Results

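Collagens are the main fibrous proteins of the extracellular matrix. Each molecule is a triple helix of 3 alpha chains with a repeated glycine motif, made in the endoplasmic reticulum, where proline and lysine residues are hydroxylated before the helix folds, and fibroblasts are a main source of it. Genes for these chains carry symbols of the form Col, a type number, the letter a and a chain number, and every gene of the platform annotation with such a symbol was taken. The rule found 36 genes, measured by 58 probe sets, among 12393 genes measured by the arrays. The brightest probe set of a gene, by its mean over the 6 arrays, stood for the gene, and any others served as a check. Of 44 chain genes sorted by class, Col24a1, Col27a1, Col6a4, Col6a5, Col6a6, Col8a2, Col23a1 and Col28a1 were not analysed here.

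The arrays hold RNA of cultured mouse cells of a line named PPP3R1, which is also the gene symbol of the regulatory subunit of the phosphatase calcineurin. The labels do not say how the line was made, what was done to that gene, whether the line is a clone or what the starvation medium held. 3 arrays are of cells starved for 6 h, and 3 are of cells in normal medium, called control. The titles put both groups in the PPP3R1 line, but the growth protocol describes the normal-medium cells as wild-type mouse embryonic fibroblasts. If the protocol were right, starvation and cell line could not be told apart in any value given here. The replicates are labelled biological, without a statement on separate cultures, so p-values reflect only how these samples vary, which may be technical. The number of arrays limits the precision. All values are log2 RMA values as deposited. Changes are starved minus control with the standard error (SE) of limma and n = 3 per group, and a gene passed at an adjusted p of 0.05.

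Of 12 fibroblast markers measured, 11 lay above a level of 5 (log2), used here as the limit of dim probe sets, in at least a group, and Thy1, at 4.80 in control and 4.87 in starved cells, did not. 5 of the 12 fell and 3 rose, so that 66.7% passed, against 40.8% of all genes and 54.3% of genes with a group mean of at least 5. The mean of the list was 10.63 to 10.67 in control arrays and 10.23 to 10.29 in starved arrays. The falls were in Fap (-2.26 ± 0.13), Lum (-2.05 ± 0.06), Pdgfrb (-0.81 ± 0.07), Pdgfra (-0.28 ± 0.06) and Dcn (-0.19 ± 0.06). The rises were in Prrx1 (0.51 ± 0.06), Vim (0.25 ± 0.05) and Fn1 (0.23 ± 0.06). The median change of the list was -0.09, so its lower mean rests largely on Fap and Lum. What part these markers had in the collagen changes was not tested. In bulk RNA, fewer cells of a type and less RNA per cell cannot be told apart. All 7 endothelial markers and 6 of 7 epithelial markers were under 5 in both groups. Over all probe sets, correlations were 0.998 within a group and 0.986 to 0.988 between groups.

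More collagen chain genes were higher than lower in starved cells. Of the 36 genes, 13 rose, 2 fell and 21 did not pass. This is 36.1% higher and 5.56% lower, against 20.8% higher and 20.1% lower of all 12393 genes. In total 41.7% of the chain genes passed, near the 40.8% of all genes, so the share that changed was close to the background. The difference in the split by direction was not tested. The median change was 0.13 for the chain genes and -0.01 for all genes. The 3 starved arrays lay wholly above or wholly below the 3 control arrays in 21 chain genes (58.3%), against 52.5% of all genes. Sizes were modest: Col10a1 was the only chain gene that changed by at least 1.

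Both group means of 12 chain genes were under 5, where a probe set is close to background. The other 24 comprised 13 genes that rose, Col14a1, which fell, and 10 that did not pass. Their median change was 0.27, and 20 of the 24 had a change above 0, as had 4473 of 8884 genes in this range. In this brighter range 58.3% of the chain genes and 54.3% of all genes passed. When each gene was centred on its own mean and the 24 genes were averaged, control arrays were at -0.17, -0.14 and -0.14 and starved arrays at 0.13, 0.19 and 0.12. No array of a group overlapped the other group in this mean. As 13 of the 24 genes had passed as higher in these same arrays, this separation is no separate support.

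**Figure D1:**
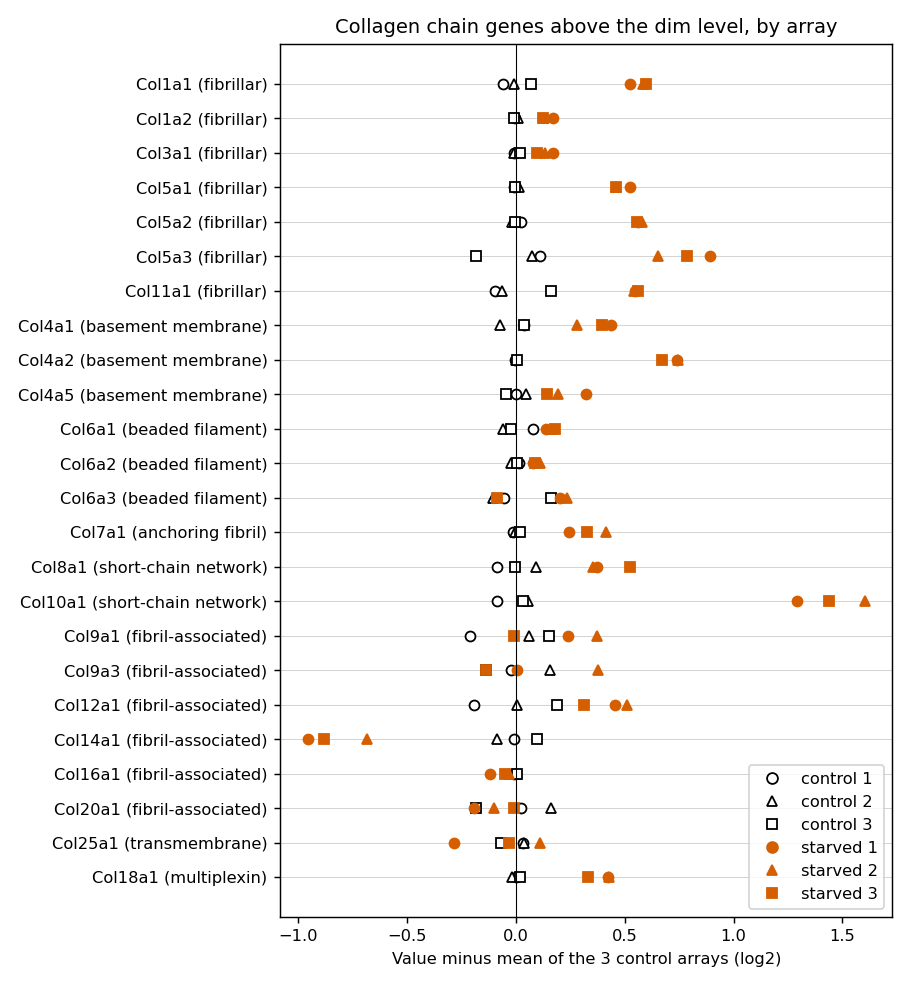
Each row is a collagen chain gene with a group mean of at least 5 (log2), and each point is an array, plotted as its value minus the mean of the 3 control arrays (log2). Open black symbols are control arrays and filled orange symbols are starved arrays. Col10a1 lies farthest to the right, at a mean of 1.44, and Col14a1 farthest to the left, at -0.84.

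To show the DNA in front of members that rose and of members that did not pass, the stretch upstream of the start site is given for Col10a1, Col5a3 and Col11a1, which rose, and for Col3a1 and Col1a2, which did not pass in their brightest probe sets. Col4a2, which also rose and has a window, is not shown. Sequences are from RefSeq, build GRCm38.p6, 5′ to 3′ on the gene's strand, up to 250 bases before the start, without bases inside the gene's own annotated span. Capitals mark matches to TATAAA, the core of the TATA box, to CCAAT and to GGGCGG, the GC box, on either strand. No match overlapped another in these sequences.
Col10a1, chr10:34389731-34389980, plus strand: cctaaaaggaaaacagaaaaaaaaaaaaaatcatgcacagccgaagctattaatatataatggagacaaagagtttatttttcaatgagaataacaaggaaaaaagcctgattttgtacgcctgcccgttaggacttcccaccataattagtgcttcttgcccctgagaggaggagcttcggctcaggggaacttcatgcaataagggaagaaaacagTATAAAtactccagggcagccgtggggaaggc
Col5a3, chr9:20815118-20815317, minus strand: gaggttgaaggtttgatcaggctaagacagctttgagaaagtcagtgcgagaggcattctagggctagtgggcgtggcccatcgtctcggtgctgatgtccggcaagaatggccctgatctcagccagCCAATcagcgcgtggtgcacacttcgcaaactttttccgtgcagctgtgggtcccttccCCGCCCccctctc
Col11a1, chr3:114030290-114030478, plus strand: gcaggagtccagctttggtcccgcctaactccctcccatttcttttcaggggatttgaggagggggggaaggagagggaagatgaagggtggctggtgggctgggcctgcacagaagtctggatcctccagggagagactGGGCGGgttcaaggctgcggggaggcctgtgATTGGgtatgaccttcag
Col3a1, chr1:45311288-45311537, plus strand: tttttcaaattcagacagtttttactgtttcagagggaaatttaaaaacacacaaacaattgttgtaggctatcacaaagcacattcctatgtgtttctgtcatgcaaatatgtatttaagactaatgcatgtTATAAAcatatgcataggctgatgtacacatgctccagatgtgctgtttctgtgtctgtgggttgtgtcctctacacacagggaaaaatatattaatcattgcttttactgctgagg
Col1a2, chr6:4505368-4505617, plus strand: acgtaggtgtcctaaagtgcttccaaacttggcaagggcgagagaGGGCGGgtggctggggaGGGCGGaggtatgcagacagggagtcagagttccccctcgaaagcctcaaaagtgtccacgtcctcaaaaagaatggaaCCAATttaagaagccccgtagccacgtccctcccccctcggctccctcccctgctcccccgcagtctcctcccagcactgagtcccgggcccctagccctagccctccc

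The Col10a1 stretch lies within the annotated span of the gene Nt5dc1 and holds TATAAA beginning 32 bases before the annotated start and neither of the other motifs. Col5a3, Col11a1 and Col1a2 hold both CCAAT and the GC box. Col3a1 holds TATAAA at 117 bases before the start. RefSeq upstream windows of 250 bases were matched for 27 of the 36 genes. CCAAT was in the windows of 7 of 10 chain genes that rose and of 4 of 16 that did not pass, and in 39.9% of 9887 measured genes and 33.8% of all 32851 windows. The GC box was in 8 of 10 and in 7 of 16, against 57.0% of measured genes and 32.7% of all windows. TATAAA was in 1 of 10 and in 3 of 16, against 10.7% of measured genes and 12.4% of all windows. All 10 that rose were above 5. The 16 that did not pass include Col11a2, Col4a4, Col4a6, Col9a2, Col19a1, Col13a1 and Col15a1, all under 5 in both groups. None of these dim genes holds CCAAT, and Col11a2, Col4a6 and Col9a2 hold the GC box. The split by call is thus in part a split by brightness. These matches describe letters in a window and are no test of binding. The members without a window were Col1a1, Col2a1, Col5a2, Col4a3, Col9a3, Col12a1, Col14a1, Col22a1 and Col26a1.

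Fibrillar collagens form the banded fibrils that give tissue its tensile strength. 5 of the 9 measured rose and 0 fell, with a median change of 0.48. This is 55.6% higher, against 20.8% higher and 20.1% lower of all genes. Above the dim level 71.4% of 7 fibrillar genes passed, against 54.3% of all genes. Type I, the main fibril of most connective tissue, is built of Col1a1 and Col1a2 chains. Col1a1 was at 11.57, 11.62 and 11.70 in control replicates 1, 2 and 3 and at 12.15, 12.21 and 12.22 in starved replicates 1, 2 and 3. The groups did not overlap, and the rise was 0.57 ± 0.06 (SE), 1.48-fold (limma adjusted p = 0.000175). Its other probe set rose by 0.70 ± 0.06.

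Col1a2, its partner chain, was at 14.02, 14.03 and 14.01 in control arrays and at 14.19, 14.15 and 14.15 in starved arrays. Every starved array was above every control array, but the difference of 0.14 ± 0.05 did not pass (limma adjusted p = 0.0609, 95% interval 0.02 to 0.26). These values lie close to the top of the arrays' scale, whose highest value was 14.53 to 14.58. The other probe set of Col1a2 was at a control mean of 12.75 and rose by 0.48 ± 0.06 (limma adjusted p = 0.000331), so that its probe sets disagree in size and in the call. The brightest probe set passed under 4 alternatives that kept it, among them leaving out dim probe sets (adjusted p = 0.0256) and a spread that follows intensity (adjusted p = 0.000143), with a range over all alternatives of 0.000143 to 0.148.

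Col3a1 encodes the type III chain, which mixes with type I in extensible tissue. It was at 12.97, 12.96 and 12.99 in control arrays and at 13.14, 13.11 and 13.07 in starved arrays. Here too the groups did not overlap and the difference of 0.13 ± 0.05 did not pass (limma adjusted p = 0.0800, 95% interval 0.01 to 0.25). Its second probe set differed by 0.16 ± 0.06 without passing (adjusted p = 0.0560). The gene passed in 5 alternatives, and its adjusted p ran from 0.00133 to 0.189.

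Type V and type XI chains sit at the core of fibrils and limit their width. Col5a1 was at 11.23, 11.25 and 11.23 in control arrays and at 11.76, 11.70 and 11.70 in starved arrays, a rise of 0.48 ± 0.05 (limma adjusted p = 0.000233). Its 2 other probe sets rose by 0.46 and 0.36. Col5a2 was at 12.47, 12.43 and 12.44 in control arrays and at 13.01, 13.03 and 13.01 in starved arrays, a rise of 0.56 ± 0.05 (limma adjusted p = 8.67e-05) that its other probe set shared at 0.49. In both genes the rise was many times the spread within a group.

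Col5a3, another type V chain, was dimmer, at 5.51, 5.47 and 5.22 in control arrays and at 6.29, 6.05 and 6.19 in starved arrays. It rose by 0.78 ± 0.10 (limma adjusted p = 0.000463), while its other probe set, with both means near 3 (3.08 and 3.21), did not pass and their mean rose by 0.45 (adjusted p = 0.0113). Col11a1 was at 10.01, 10.04 and 10.27 in control arrays and at 10.65, 10.65 and 10.66 in starved arrays, a rise of 0.55 ± 0.08 (limma adjusted p = 0.000795) with 0.58 in its other probe set. Control replicate 3 was the highest of its group here, 0.24 above the mean of the other two. Col2a1, the main chain of cartilage, and Col11a2 were under 5 in both groups and did not pass.

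**Figure D2:**
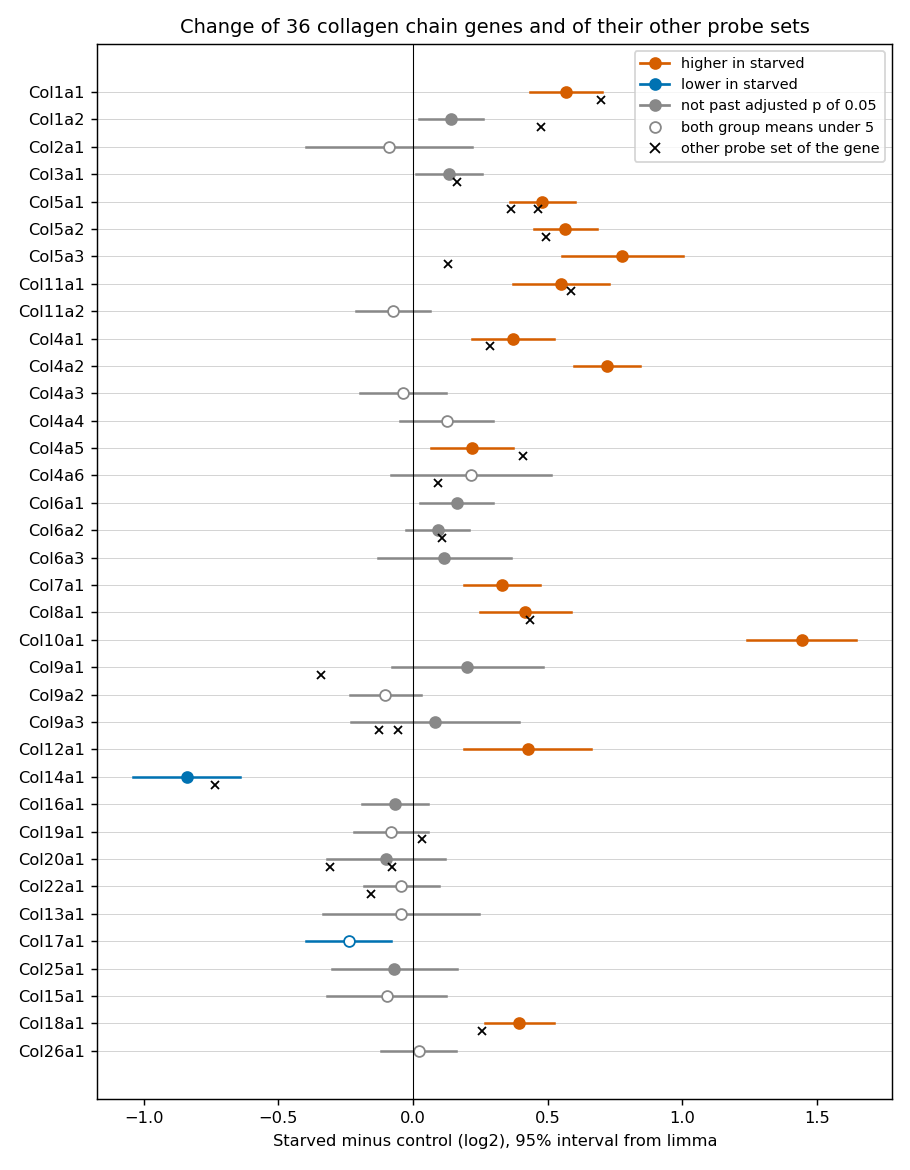
Points give the change of each of 36 collagen chain genes, starved minus control (log2), and lines the 95% interval from limma, with n = 3 per group; crosses give the gene's other probe sets. Orange genes rose, blue genes fell and grey genes did not pass, and open circles mark genes with both group means under 5. Crosses lie on the same side of 0 as the filled orange and blue points in every gene that has them.

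Type IV collagen forms the network of basement membranes, and Col4a1 and Col4a2 make its common trimer. All 3 type IV genes measured above 5 rose. Col4a2 was at 10.49, 10.49 and 10.50 in control arrays and at 11.24, 11.24 and 11.17 in starved arrays. Its rise of 0.72 ± 0.05 was 1.65-fold (limma adjusted p = 3.40e-05) and rests on 1 probe set. Col4a1 was at 10.34, 10.23 and 10.34 in control arrays and at 10.74, 10.59 and 10.70 in starved arrays, a rise of 0.37 ± 0.07 (limma adjusted p = 0.00262), with 0.28 in its other probe set. The genes lie head to head on chromosome 8, and the RefSeq start sites used for their windows are 21 bases apart on opposite strands. Their windows of 300 bases, 250 upstream and 50 downstream of the start, share 78 bases. The annotated 5′ ends overlap, so that the stretches upstream of the starts do not.

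Col4a5, a chain of kidney and other specialised basement membranes, was at 9.89, 9.94 and 9.85 in control arrays and at 10.21, 10.09 and 10.03 in starved arrays. It rose by 0.22 ± 0.07 (limma adjusted p = 0.0294). A dimmer probe set rose by 0.41 ± 0.08. In the brighter probe set the call was lost without control replicate 1 (adjusted p = 0.0719), control replicate 3 (0.0798), starved replicate 1 (0.0866) or starved replicate 2 (0.0600) and without moderation (0.0589), and its alternatives spanned 0.00173 to 0.0866. Col4a3, Col4a4 and Col4a6 were under 5 in both groups. Col4a6 differed by 0.22 ± 0.13 without passing and passed without starved replicate 1 (adjusted p = 0.0226), with alternatives from 0.0226 to 0.506.

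Type VI collagen forms beaded microfilaments around cells, and 0 of its 3 measured genes passed. All 3 were above the dim level, where 54.3% of all genes passed. Col6a1 was at 11.79, 11.65 and 11.68 in control arrays and at 11.84, 11.87 and 11.89 in starved arrays, a difference of 0.16 ± 0.06 (limma adjusted p = 0.0620, 95% interval 0.03 to 0.30). Col6a2 was at 11.76, 11.72 and 11.75 in control arrays and at 11.82, 11.85 and 11.83 in starved arrays, a difference of 0.09 ± 0.05 (adjusted p = 0.206, 95% interval -0.03 to 0.21). The groups did not overlap in either gene. Col6a1 passed in 4 alternatives, among them without control replicate 1 (adjusted p = 0.0409), with a range of 0.00263 to 0.175, and Col6a2 in 2, with a range of 0.0166 to 0.388. Col6a3 differed by 0.12 ± 0.11 with groups that overlapped (adjusted p = 0.445, 95% interval -0.13 to 0.36). The intervals leave room for rises of up to 0.30, 0.21 and 0.36, so that these data do not show that type VI genes stayed level.

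The largest change of any chain gene was in Col10a1, which encodes the short-chain collagen of hypertrophic cartilage. It was at 5.20, 5.34 and 5.32 in control arrays and at 6.58, 6.89 and 6.72 in starved arrays, so that it went from close to the dim limit to well above it. The rise of 1.44 ± 0.09 (limma adjusted p = 1.40e-05), 2.72-fold, rests on 1 probe set. Of 8 chondrocyte markers, Hapln1 (1.61 ± 0.16) and Matn3 (0.70 ± 0.09) rose while Sox9 (-0.72 ± 0.05) and Comp (-0.22 ± 0.06, under 5 in both groups) fell. Hapln1 rose from a control mean of 4.13, under 5, to 5.73, and its other probe sets, under 5 in both groups, rose by 1.01 and 0.98. The list's mean was 4.65 to 4.70 in control arrays and 4.83 to 4.93 in starved arrays, and the part of this list in the Col10a1 rise was not tested. The defining cartilage genes Acan and Matn1, like Col2a1, were under 5 in both groups, with Acan at 4.05 in control and 3.94 in starved cells. Col8a1, the other short-chain gene measured, was at 8.53, 8.71 and 8.62 in control arrays and at 8.99, 8.97 and 9.14 in starved arrays, a rise of 0.42 ± 0.07 (limma adjusted p = 0.00255) that its other probe set shared at 0.43.

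Among collagens that decorate fibrils, 1 of 9 genes rose and 1 fell. This is 22.2% past the threshold, and 33.3% of the 6 above the dim level, against 40.8% and 54.3% of all genes. Col14a1, which encodes a fibril-associated collagen that interacts with the proteoglycan decorin, was at 6.73, 6.65 and 6.84 in control arrays and at 5.78, 6.06 and 5.86 in starved arrays. It fell by 0.84 ± 0.09, 1.79-fold (limma adjusted p = 0.000169). The second probe set fell by 0.73 ± 0.14. This was the only fall among chain genes above 5. Col12a1, another fibril-associated chain, was at 8.60, 8.79 and 8.97 in control arrays and at 9.24, 9.30 and 9.10 in starved arrays, a rise of 0.43 ± 0.10 (limma adjusted p = 0.0113). The call was lost without moderation (adjusted p = 0.0702), and its alternatives spanned 0.000725 to 0.0702. Col16a1, at 8.69 in control and 8.62 in starved cells, differed by -0.07 ± 0.05 without passing. Col9a1, Col9a3 and Col20a1 had overlapping groups between 5.08 and 6.13 and did not pass, and Col9a2, Col19a1 and Col22a1 were under 5.

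Col7a1, the chain of the anchoring fibrils that tie skin to its basement membrane, rose from 6.03, 6.04 and 6.06 in control arrays to 6.29, 6.45 and 6.37 in starved arrays, by 0.33 ± 0.06 (limma adjusted p = 0.00344). Col18a1, the precursor of the angiogenesis inhibitor endostatin, was at 6.93, 6.91 and 6.94 in control arrays and at 7.35, 7.35 and 7.26 in starved arrays, a rise of 0.39 ± 0.06 (limma adjusted p = 0.000801) with 0.25 in its other probe set. Groups did not overlap in either gene. Col15a1, a relative of Col18a1, was under 5 in both groups. Of the 3 transmembrane collagens, Col13a1 and Col25a1 did not pass, and Col17a1, a chain of epithelial hemidesmosomes, fell by 0.24 ± 0.07 (limma adjusted p = 0.0246) at means of 4.14 and 3.91, both under 5. That call was lost under 6 alternatives at the same threshold, among them without control replicate 3 (0.0600), starved replicate 1 (0.0725) or starved replicate 2 (0.0747), with adjusted p from 0.0124 to 0.0780. Col26a1 was under 5 and did not pass.

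Of the 36 genes, 19 had 22 other probe sets. Of these 22, 10 were called in the direction of their called gene (39.5% of all probe sets were called in either direction), and 0 other probe sets were called in the opposite direction. The dim second probe set of Col5a3 was the only other probe set of a gene that rose without a call of its own. Col1a2 was the only gene not called in its brightest probe set and called in another.

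Whether chains that share a molecule, a fibril or a genomic neighbourhood changed by the same amount was asked by subtracting their values within each array. 12 pairs were measured, and an exact two-sided permutation test over arrays cannot go below p = 0.1 with 3 against 3. In 7 pairs starved and control arrays did not overlap (exact permutation p = 0.1, adjusted over the 12 pairs p = 0.171), so no pair could pass and the values are given as sizes. Among the 8 pairs without a gene under 5, 5 did not overlap. Of all single genes 52.5% did not overlap. The share for pairs of genes in general was not computed, so the count is not a result about these pairs. Col1a1 minus Col1a2 depended on the Col1a2 probe set. With the one near the top of the scale it was 0.43 or 0.56, and with the other, at 12.75, it was 0.093, with groups that overlapped (exact permutation p = 0.2), or 0.22 (exact permutation p = 0.1). Whether the bright probe set understates the change of Col1a2 was not tested. Col4a1 minus Col4a2, both of which rose, was -0.35 (-0.30, -0.46 and -0.28 in the starved arrays), and it was -0.44 with the other Col4a1 probe set. Col5a1 minus Col5a2 was -0.085, and -0.20 to -0.013 with other probe sets, of which 4 combinations overlapped between groups. Col6a1 and Col6a2, neighbours on chromosome 10, differed by 0.07 with groups that overlapped (exact permutation p = 0.3). Col3a1 and Col5a2, neighbours on chromosome 1, differed by -0.43, and by -0.40 to -0.33 with other probe sets. Col1a1 minus Col3a1 was 0.43, and 0.41 to 0.56 with other probe sets. Of the remaining pairs, Col4a3 minus Col4a4 (-0.16) and Col11a1 minus Col11a2 (0.62) include genes under 5.

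**Figure D3:**
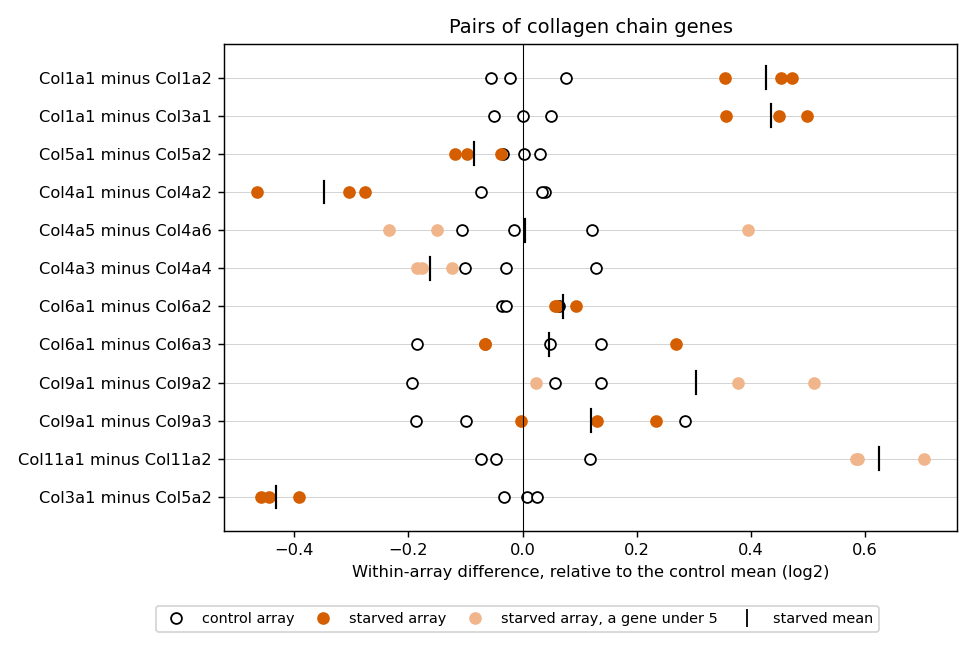
For each pair of collagen chain genes, points give the difference of their log2 values within an array, minus the mean of that difference in control arrays. Open points are control arrays, filled points starved arrays (paler where a gene of the pair is under 5), and bars the starved mean. Col1a1 minus Col3a1 lies at 0.43, as does Col1a1 minus Col1a2, where the Col1a2 probe set is near the top of the scale and the other one gives 0.093, and Col4a1 minus Col4a2 at -0.35.

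Chains need enzymes, chaperones and proteases before they become fibrils, and 6 lists of such genes, of receptors and of regulators were read beside the chains. Of 101 genes listed, 84 were measured, of which 22 rose and 29 fell (60.7%, against 40.8% of all genes), with a median change of -0.00064. Above the dim level, 66.7% of 75 list genes passed, against 54.3% of all genes. The pooled counts were 23 rises and 22 falls without starved replicate 2.

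Genes for hydroxylation split by enzyme. Of 12 genes for prolyl and lysyl hydroxylation and glycosylation, all above the dim level, 3 rose and 5 fell, with a median of -0.06. This is 66.7%, against 40.8% of all genes and 54.3% of those above the dim level. Both measured catalytic subunits of prolyl 4-hydroxylase, which makes the helix stable at body temperature, fell: P4ha1 from 10.79 ± 0.07 (SD, n = 3) to 10.27 ± 0.01 (SD, n = 3), by 0.52 ± 0.06 (SE), and P4ha2 from 10.54 ± 0.13 (SD) to 9.80 ± 0.07 (SD), by 0.74 ± 0.08 (limma adjusted p = 0.000254 and 0.000212). The shared subunit P4hb fell by 0.24 ± 0.06 (adjusted p = 0.0199), a call lost without control replicate 1 (0.0680), starved replicate 1 (0.0664) or starved replicate 2 (0.0562), while alternatives spanned 0.000103 to 0.0680. The lysyl hydroxylase gene Plod1 fell by 0.82 ± 0.08 (adjusted p = 0.000169), Plod3, which also adds sugars, rose by 0.42 ± 0.06 (adjusted p = 0.000614), and Plod2 differed by 0.11 ± 0.12 without passing. The number of falls was 3 without control replicate 1, starved replicate 1 or starved replicate 2. P4ha1, P4ha2 and Plod1 thus fell in the arrays in which 5 fibrillar chain genes rose, while the 3 rises of this list, Plod3 among them, went the other way.

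Among 16 genes for procollagen chaperones and secretion 3 rose, 5 fell and 8 did not pass (median -0.02), where 40.8% of all genes passed. Above the dim level 53.3% of 15 list genes passed, against 54.3% of all genes, so this share was close to the background. Serpinh1, the collagen-specific chaperone also called HSP47, rose by 0.19 ± 0.06 (limma adjusted p = 0.0291), a call lost without control replicate 1 (0.0751), control replicate 3 (0.0735), starved replicate 1 (0.0899) or starved replicate 3 (0.0754), while alternatives spanned 0.000205 to 0.0899. Its other probe set rose by 0.33 ± 0.05 (limma adjusted p = 0.00172), and the mean of its probe sets by 0.26 (limma adjusted p = 0.00414). The collagen-binding matrix protein gene Sparc rose by 0.31 ± 0.05, and Creb3l1, a factor of collagen secretion in bone, by 0.27 ± 0.06. Hspa5, which encodes the general chaperone BiP, fell by 0.48 ± 0.06 and Larp6, which binds the messenger RNAs of type I chains, by 0.41 ± 0.08. Pdia4, a disulfide isomerase gene, fell by 0.28 ± 0.08 (limma adjusted p = 0.0244) but not in the mean of both probe sets (0.740) or without control replicate 2 (0.0812), control replicate 3 (0.0733) or starved replicate 2 (0.0797), the alternatives spanning 0.00107 to 0.740. The number that fell was 2 without control replicate 2, control replicate 3 or starved replicate 2, and 3 without starved replicate 3.

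Of 12 genes for processing and cross-linking 2 rose, 4 fell and 6 did not pass (median -0.05), where 40.8% of all genes passed. Above the dim level 66.7% of 9 list genes passed, against 54.3% of all genes. Procollagen C-proteinase Bmp1 fell by 0.37 ± 0.07 (limma adjusted p = 0.00437) and the lysyl oxidase relative Loxl1 by 0.36 ± 0.05 (adjusted p = 0.00124), while Lox, the main cross-linking oxidase, differed by 0.13 ± 0.05 without passing (adjusted p = 0.0738); it passed in 5 alternatives, which spanned 0.000498 to 0.165. The C-proteinase enhancer gene Pcolce fell by 0.19 ± 0.06 (adjusted p = 0.0442), a call lost in 7 alternatives at the same threshold, among them without control replicate 1 (0.0842), control replicate 2 (0.136), starved replicate 2 (0.125) or starved replicate 3 (0.130), the lowest value being 0.000542. Its relative Pcolce2 rose by 1.86 ± 0.11 (adjusted p = 1.28e-05) from a control mean of 4.59, under the dim limit, to 6.45. Tgm2, a cross-linking transglutaminase, fell by 1.04 ± 0.07, and Loxl4 rose by 0.67 ± 0.11.

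Of 8 receptor and uptake genes 3 rose and 3 fell (75.0%, against 40.8% of all genes). The shared integrin chain gene Itgb1 (0.34 ± 0.07) and the collagen receptor kinase genes Ddr2 (0.34 ± 0.07) and Ddr1 (0.27 ± 0.07) rose. Averaging the probe sets gave 0.21 for Itgb1 (adjusted p = 0.0242). For Ddr1 averaging ended the call (adjusted p = 0.0685), and the alternatives spanned 0.000646 to 0.0685. Ddr1 and Pepd are named after their values were seen. The 3 falls were in genes that take up or degrade collagen: the endocytic receptor gene Mrc2 (-0.46 ± 0.06), the collagenolytic cathepsin gene Ctsk (-0.52 ± 0.09) and Pepd (-0.32 ± 0.05), whose product splits proline dipeptides.

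TGF-beta is the best known inducer of fibrillar collagen genes. Of 17 genes of its ligands, receptors and SMAD factors, all above the dim level, 3 rose and 8 fell, with a median of -0.17. This is 64.7%, against 40.8% of all genes and 54.3% of those above the dim level. The ligand gene Tgfb1 rose from 5.53 ± 0.06 (SD) to 6.19 ± 0.12 (SD), by 0.65 ± 0.07 (limma adjusted p = 0.000281), while Tgfb2 fell by 0.41 ± 0.08 and Tgfb3 differed by -0.13 ± 0.05 without passing. The receptor gene Tgfbr1 fell by 0.83 ± 0.07 (adjusted p = 9.09e-05) in its brightest probe set. Its 2 other probe sets, both under 5, differed by -0.19 and -0.15 without passing, and the mean of all 3 fell by 0.39 (adjusted p = 0.00198). Tgfbr2, counted among the 8 falls, rose by 0.44 in another probe set and has no settled direction. Ltbp2, of the latent TGF-beta binding protein family, rose by 0.59 ± 0.07 and Ski, a repressor of SMADs, fell by 0.42 ± 0.06. Smad4 rose by 0.40 ± 0.06, and by 0.56 and 0.61 in its other probe sets, and is named after its values were seen. The inhibitory SMAD gene Smad7, a target of the pathway, fell by 0.36 ± 0.06, and Ccn2, another target, differed by 0.05 ± 0.08 without passing, as did Smad3 (-0.13 ± 0.12). The falls thus include the inhibitors Ski and Smad7, so the counts give no direction for the pathway.

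Among 19 transcription factor genes tied to collagen promoters 8 rose and 4 fell, with a median of 0.26. This is 63.2%, and 68.8% above the dim level, against 40.8% and 54.3% of all genes. Sp1, which binds GC boxes, rose by 0.76 ± 0.11 (limma adjusted p = 0.00104) in its brightest probe set and by 0.25 ± 0.07 in the other. Sox9, the driver of cartilage collagen genes, fell by 0.72 ± 0.05 (adjusted p = 3.57e-05), and Sp7 differed by 0.09 ± 0.12 without passing. Fli1, a repressor of type I collagen genes, fell by 0.87 ± 0.14 at means of 4.02 and 3.15, both under 5, and by 0.55 in the mean of its probe sets. Runx1 fell by 0.68 ± 0.06 in its brightest probe set while another rose by 0.49 ± 0.08, so that it has no settled direction, though it is counted among the 4 falls. Among the rises, Ybx1 lost its call in the mean of its probe sets (limma adjusted p = 0.137) and Ets1 without control replicate 2 (limma adjusted p = 0.0611). Nfatc1, Sox6, Rfx1 and Sp3 gained a call under some alternatives. These 6 genes are named after their values were seen.

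**Figure D4:**
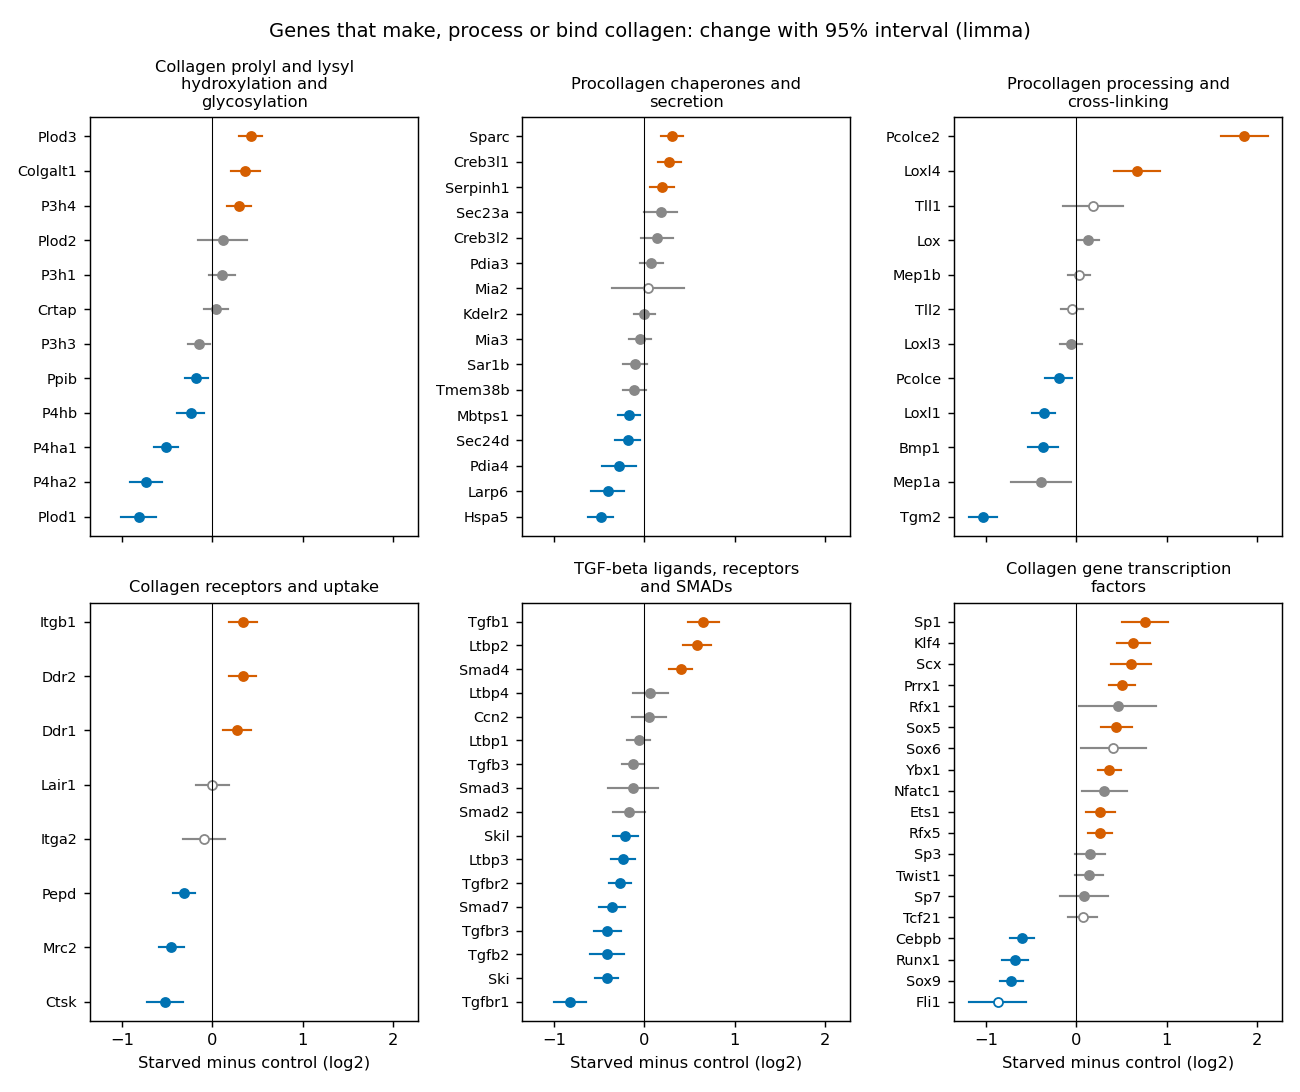
Each panel is a list of genes that make, process, bind or regulate collagen, and each point a gene's change, starved minus control (log2), with the 95% interval from limma (n = 3 per group). Orange rose, blue fell, grey did not pass, and open circles had both means under 5. P4ha1, P4ha2 and Plod1 lie at -0.52, -0.74 and -0.82 and Pcolce2 at 1.86.

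Of 8 muscle markers, Tagln (1.89 ± 0.08), Cnn1 (0.82 ± 0.07) and Acta2 (0.64 ± 0.05) rose and 5 did not pass. This is 37.5% past the threshold, against 40.8% of all genes. The list's mean was 6.60 to 6.67 in control arrays and 6.96 to 7.07 in starved arrays. Des, at 6.63 in control and 6.65 in starved cells, and Myog, at 5.34 and 5.28, did not pass, and the defining muscle genes Myh11, Myh3 and Myod1 were under 5 in both groups. Of 5 osteoblast markers, Phex fell (-0.57 ± 0.12) and Ibsp and Dmp1 were under 5, and the list's mean was 4.42 to 4.58 in control and 4.37 to 4.48 in starved arrays. Of 7 leukocyte markers Cd68 rose (0.43 ± 0.06), with Ptprc at 3.07 and 3.03, and of 4 adipocyte markers Fabp4 fell (-1.40 ± 0.08), with Adipoq at 3.15 and 3.05. The part of these markers in the collagen changes was not tested.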

How the data were processed

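Biotin-labelled RNA of 3 starved and 3 control samples was measured on Affymetrix mouse arrays. The authors deposited log2 values; per the submitters' processing notes the tools were affy and RMA, with no version named. RMA corrects background, quantile normalizes and summarises probe sets, so that a shift shared by most transcripts is removed. The table holds no detection calls.

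Of 22690 probe sets, 64 controls were set aside and 22626 were tested with limma 3.58.1 in R 4.3.3 (a linear model without covariates, empirical Bayes moderation, two-sided). Benjamini-Hochberg adjustment ran over all of them, with a threshold of 0.05. The platform annotation named 1 gene for 20380 probe sets, several for 691 (0 of them a collagen chain gene) and none for 1555. The procedure was tested on simulated data. Figures used matplotlib 3.10.9 (Python 3.11.15).

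The members, lists and pairs were chosen with earlier results of these data known. Values in every array were due for chain genes that passed with a change of at least 0.5 and no overlap and for the main chains of types I, III, IV, V and VI, and other chain genes may be named. From each other list a fixed set and up to 4 called genes of largest change were named. Groups come from the titles. No scan dates were used, and a batch and the groups cannot be told apart.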

Additional observations from a re-analysis of the deposited data

How the results depend on the processing

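With the replicate number as a block, 13 chain genes were higher and 2 lower, as without it, and of all genes 4624 passed in place of 5059. It took falls from 5 to 3 in the hydroxylation list and from 5 to 3 in the chaperone list, ending the calls of P4hb (adjusted p = 0.0550), Serpinh1 (0.0683) and Pcolce (0.0775) among the genes named. Deviations of same-numbered arrays from their group means correlated at -0.094, 0.015 and -0.0083, so the numbers were not taken to pair the samples. Over the alternatives that keep 6 arrays, 11 to 17 chain genes were higher. The number lower was 1 in place of 2 without dim probe sets, after a second quantile normalization, with an intensity trend, without moderation, without probe sets of the suffixes _s_at, _x_at and _a_at and at a threshold of 0.01; in each, Col17a1 lost its call or was not tested. It was 1 to 2 on leaving out each array, and 1 without control replicate 3, starved replicate 1 or starved replicate 2. The median change of 0.13 became 0.27 without dim probe sets, 0.11 with array medians subtracted, 0.16 without those suffixes, and 0.11 to 0.15 on leaving out each array. Of 558 values of single chain genes under alternatives, 514 kept direction and call, 15 lost the call, 18 gained it, 0 called values reversed and 11 uncalled values changed sign. In the other lists, Tgfbr2 turned from -0.27 to 0.028 when its probe sets were averaged (adjusted p = 0.693), another of them having risen by 0.44, and Sox5 from 0.44 to -0.049 without those suffixes (adjusted p = 0.610), where a dim probe set stood for it. The combinations of probe sets for pairs were chosen after seeing the data. Dim signal limits the 12 chain genes under 5.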
